A study of Mus musculus with 9 samples.

Results

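Histone genes were followed in whole testes of 3-week-old mice, at an age when the first wave of spermatogenesis reaches round spermatids. Genes were taken by their symbols: those starting with the older Hist1h to Hist4h names or with the current names of the H1, H2A, H2B, H3 and H4 families, leaving out the H2- genes of the major histocompatibility complex. Of 22337 genes in the table, 94 were histone genes by this pattern. They comprised 62 replication-dependent genes, 7 replacement variants and 25 germ cell variants, called testis variants here although H1f8 is known from oocytes. The mice belonged to 3 groups with 3 testis libraries each: wild-type (WT-WT), heterozygous Piwil4WT/R264W (WT-KI) and homozygous Piwil4R264W/R264W (KI-KI). The R264W allele is a missense knock-in made with CRISPR-Cas9 in C57BL/6 zygotes, and it is carried in every cell. PIWIL4 is a PIWI protein that guides silencing of transposons in fetal male germ cells. The RNA table holds gene totals, so it could not be used to check the knocked-in base. The labels do not say whether each library came from a separate mouse, so the p-values measure the spread between these libraries.

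Histones package DNA into nucleosomes, with H2A, H2B, H3 and H4 forming the core and H1 binding the linker. Replication-dependent genes supply most histone during S phase. Their mRNA is cut after a short stem-loop and usually carries no poly(A) tail, whereas replacement variants such as H3.3 and H2A.Z are made throughout the cell cycle from polyadenylated mRNA. Male germ cells add variants of their own. H1t and the core histones TH2A and TH2B are known from spermatocytes, H1T2, HILS1 and the small H2A.L proteins from spermatids, and in elongating spermatids most histone gives way to transition proteins and then protamines.

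The libraries were made from poly(A)-selected mRNA, so the 3′ end of each histone gene matters for what could be read. The stem-loop was searched, on the sense strand only, as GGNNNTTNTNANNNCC in the transcripts of the GENCODE annotation (mouse build GRCm38), matched by gene identifier. This pattern was found in the last 120 bases of 96 of 21901 coding genes (0.44%). Of the 62 replication-dependent genes, 51 had an annotated 3′ UTR and 43 held the pattern in it. A transcript ending within 104 bases of the loop was annotated for 23 of the 43, and the other 20 had only transcripts that ran farther. The transcript of the replacement variant H2ax also held the pattern, 46 bases after the stop codon, and ran 822 bases past it. The sites below, with the stem-loop in capitals and 5 flanking bases on each side, are shown for the genes whose levels rose with the stage of the testes (H2ac18, H2bc22, H3c1, H4c1 and the testis variant H1f6) and for 3 genes with the same element that gave few reads (H2ac7, H3c2 and H4c8).

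H2ac18: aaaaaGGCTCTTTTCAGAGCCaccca
H2bc22: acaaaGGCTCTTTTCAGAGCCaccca
H3c1: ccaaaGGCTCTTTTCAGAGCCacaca
H4c1: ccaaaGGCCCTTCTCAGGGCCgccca
H1f6: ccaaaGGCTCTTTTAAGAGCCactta
H2ac7: acaaaGGCTCTTTTCAGAGCCatcca
H3c2: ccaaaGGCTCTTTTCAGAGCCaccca
H4c8: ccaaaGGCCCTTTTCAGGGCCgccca

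In GRCm38 the H2ac18 site lies at chr3:96246027-96246052 on the plus strand, in the 3′ UTR, 58 bases after the stop codon, and the transcript ends 35 bases after the loop. The H2bc22 site is at chr13:21787918-21787943 on the plus strand. A second coding transcript of H2bc22 lacks the loop and holds a polyadenylation signal (AATAAA or ATTAAA in the last 50 bases). The H3c1 site (chr13:23761885-23761910) and the H4c1 site (chr13:23760795-23760820) are on the minus strand. The H4c1 transcript ends 108 bases after the loop and the H1f6 transcript (site at chr13:23696520-23696545, plus strand) 185 bases after it, and both hold AATAAA or ATTAAA in their last 50 bases. The sites of H2ac7 (chr13:23574890-23574915), H3c2 (chr13:23752815-23752840) and H4c8 (chr13:23531453-23531478) lie in 3′ UTRs on the plus strand. The H4c8 transcript, although it gave few reads, also holds such a signal in its last 50 bases, whereas those of H2ac7 and H3c2 do not.

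Upstream sequences were read from RefSeq promoters of GRCm38.p6, which span 250 bases before to 50 after a gene's start and matched 56 replication-dependent, 6 replacement and 25 testis variant genes. They are shown for H1f9, the testis variant with the highest level, and for H2bc22 and H4c1, replication-dependent genes that rose with stage. Capitals mark the CCAAT box, the TATA box searched as TATAAA and the cyclic AMP response element searched as TGACGTCA, all on both strands.

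H1f9: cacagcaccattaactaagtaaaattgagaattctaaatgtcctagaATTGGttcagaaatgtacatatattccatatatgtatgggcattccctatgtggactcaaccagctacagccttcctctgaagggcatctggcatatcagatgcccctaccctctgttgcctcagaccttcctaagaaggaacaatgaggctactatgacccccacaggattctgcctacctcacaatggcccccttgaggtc
H2bc22: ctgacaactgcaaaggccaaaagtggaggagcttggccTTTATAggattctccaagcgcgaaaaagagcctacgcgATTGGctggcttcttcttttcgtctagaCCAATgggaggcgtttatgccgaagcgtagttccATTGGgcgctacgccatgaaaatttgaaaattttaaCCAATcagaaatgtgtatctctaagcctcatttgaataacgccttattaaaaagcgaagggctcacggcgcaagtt
H4c1: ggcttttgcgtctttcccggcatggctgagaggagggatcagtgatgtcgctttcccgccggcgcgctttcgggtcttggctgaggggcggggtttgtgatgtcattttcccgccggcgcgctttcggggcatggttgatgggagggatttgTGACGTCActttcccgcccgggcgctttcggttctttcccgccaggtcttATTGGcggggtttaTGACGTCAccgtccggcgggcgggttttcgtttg

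These 250-base windows cover chr11:94967343-94967592 (plus strand), chr13:21787238-21787487 (plus strand) and chr13:23761250-23761499 (minus strand). H4c1 held 2 response elements, starting 98 and 34 bases before its start, with a CCAAT box between them. H2bc22 held 4 CCAAT boxes and a TATAAA that starts 212 bases upstream and reads toward H2ac22, the H2A gene it shares this region with. H1f9 held a CCAAT box 203 bases upstream. Over the whole windows, CCAAT was present in 83.9% of replication-dependent promoters, 24% of testis variant promoters and 37.92% of all 27025 promoters. TATAAA was present in 57.1%, 16% and 14.16%, and the response element in 7.1%, 0% and 1.88%, respectively. Genes that share a divergent promoter, and the copies among the H2A.L genes, were counted separately in these shares. No H2A.L promoter held CCAAT, whereas that of every other testis variant except H1f7 did.

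The histone genes together took 0.219% to 0.242% of all counts in a library. Total counts ran from 17964135 to 24279056 per library, so that 3 counts, taken as the limit of detection, corresponded to 0.124 to 0.167 CPM (counts brought to a common library size, with TMM scaling). Replacement variants held 84.9% of the histone counts summed over the libraries, replication-dependent genes 11.8% and testis variants 3.26%. H3f3b alone held 41.6%, H2az1 16.5%, H3f3a 16.4% and H2ac18 6.64%. A further 6 genes were at 0 in every library and 25 genes, these included, never had more than 3 counts. Genes of pachytene spermatocytes were high in all libraries, at a mean log2 CPM of 9.05 or more, whereas those of epididymis (-1.93 to 1.09) and skeletal muscle (-3.23 to -1.0) were low, as the testis label requires.

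**Figure D1:**
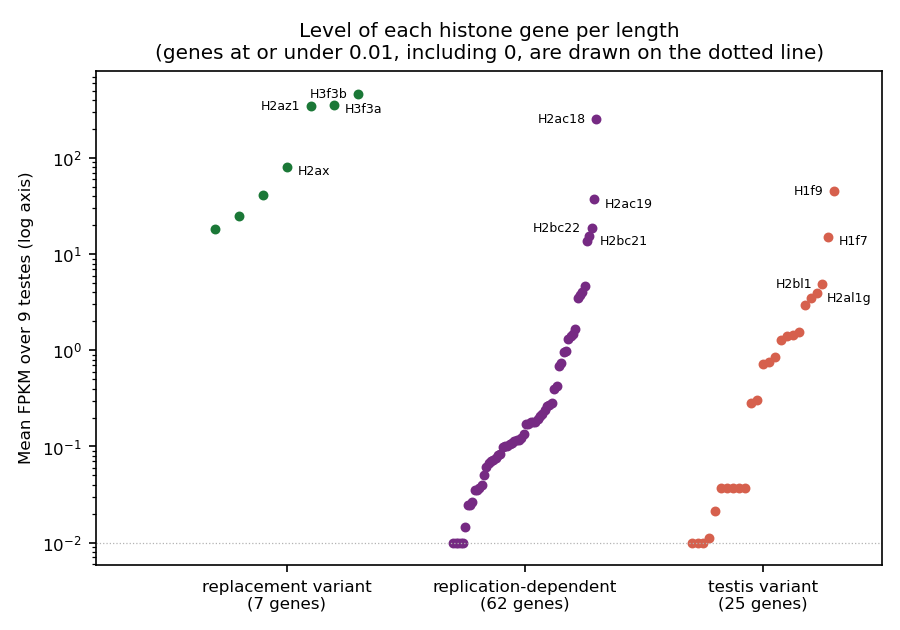
Mean FPKM (level per length, log axis) over 9 testes for each of 94 histone genes, in 3 classes. Each point is a gene, spread sideways by rank, with the 4 highest of each class named. All 7 replacement variants lie at 18.1 or above, whereas 49 of 62 replication-dependent genes lie under 1.

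Per length, the replacement variants were read at mean FPKM of 18.1 to 467, with a median of 80.7. H3f3b (467 FPKM) and H3f3a (358) encode the same H3.3 protein, and H2az1 (349) encodes H2A.Z. The median of the 62 replication-dependent genes was 0.152 FPKM, and 53 of them had under 100 counts in every library. The 9 with 100 or more counts in a library were H2ac18, H2ac19, H2bc4, H2bc21, H2bc22, H1f2, H3c14, H3c15 and H4c1. H2ac18 and H2ac19 together made up 63.4% of the replication-dependent counts. Of 14 replication-dependent genes with a polyadenylation signal in the last 50 bases of a transcript, 5 had 100 or more counts (H1f2, H2bc21, H2bc22, H3c14 and H4c1). Of 21 annotated only with an end at the stem-loop, 2 did (H2ac18 and H2ac19). Of 11 whose transcripts ran past the loop without a signal, 1 did (H3c15), and of 16 with neither loop nor signal annotated, 1 did (H2bc4). This last group includes the genes without an annotated 3′ UTR, in which the loop could not be searched. The highest level per length of a replication-dependent gene, that of H2ac18 at 254 FPKM, belonged to a gene annotated with a stem-loop end only. A signal in this window was found for 77.9% of all coding genes. Whether the 3′ end set these levels was not tested.

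Several histone genes are copies of each other, and the fractional counts show that shared reads were divided between them. H2ac18 (chr3:96245497-96246082, plus strand) and H2ac19 (chr3:96239749-96240276, minus strand) lie 5220 bases apart and have identical coding sequences. All stretches of 100 bases in the H2ac19 transcript also occur in another histone transcript. In WT-WT 1, H2ac19 was at 0 while H2ac18 was at 200 CPM, a split that no other library showed. H3c14 and H3c15, and 7 of the H2al1 genes (H2al1a, c, d, f, g, h and i), also share identical coding sequences. Levels of single copies in these groups are uncertain.

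Many H2A and H2B genes lie head to head. By the gene starts of the annotation, 12 such pairs on opposite strands had starts at most 500 bases apart, all but H2ac20 with H2bc21 (chromosome 3) on chromosome 13, and counting the testis pair H2ac1 and H2bc1. In 9 of the 12 pairs neither gene reached 100 counts, and no pair had both genes at 100 or more. In the other 3 it was the H2B gene that was read. H2bc21 had 680 to 1017 counts and H2ac20, 239 bases away, 8 to 28.0. H2bc4 had 264 to 474 counts and H2ac6, 251 bases away, 1 to 10. H2bc22 had 64 to 525 counts and H2ac22, 243 bases away, 0 to 1.1.

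To order the testes by the progress of the first wave, a stage score was computed by averaging, on the log2 scale, the CPM of 20 genes of round spermatids, none of them a histone. The scores were 0.71 in WT-KI 3, 1.23 in WT-WT 3, 2.27 in KI-KI 1, 2.38 in WT-WT 2, 3.32 in WT-KI 2, 3.50 in KI-KI 2, 4.72 in WT-KI 1, 5.50 in KI-KI 3 and 5.69 in WT-WT 1. They formed a graded series, with no gap above 1.22 in a range of 4.98. The scores spread widely within each genotype, but the lowest in KI-KI was 2.27, against 0.71 in WT-KI and 1.23 in WT-WT. The mean score was 3.10 ± 2.32 (SD, n = 3) in WT-WT, 2.92 ± 2.04 (SD, n = 3) in WT-KI and 3.76 ± 1.63 (SD, n = 3) in KI-KI. Below, values are given in this order, from the lowest score to the highest. The slope of each gene on the score was fitted over all genes with genotype in the model. It is the change in log2 CPM per unit of the score. The score adds a prior count of 1, which damps changes near 0 counts more than the default settings of the slope fit do. A slope of 1 therefore matches the rise of the 20 score genes only roughly, and their median slope was 0.81. In whole testes, fewer cells of a type and less RNA per cell cannot be told apart.

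Across all 15771 genes tested, 17.5% rose and 8.41% fell with the score at an adjusted p under 0.05. Of the 94 histone genes, 35 had enough counts to be tested, and 17 rose, 3 fell and 15 passed in neither direction. The 17 were 13 testis variants and 4 replication-dependent genes. A gene that is silent in early testes enters this test only through its counts in late ones, so the number that rose among those tested is a description and not evidence about the class. The other 59, namely 12 testis variants and 47 replication-dependent genes, were too low to test. Over the same testes, 6 of 12 pachytene spermatocyte genes rose and 1 fell, and 2 of 8 Leydig cell genes rose and 0 fell. Their mean log2 CPM ranged from 9.05 to 9.46 and from 4.47 to 5.76, and their part in the rise of histone genes was not tested.

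**Figure D2:**
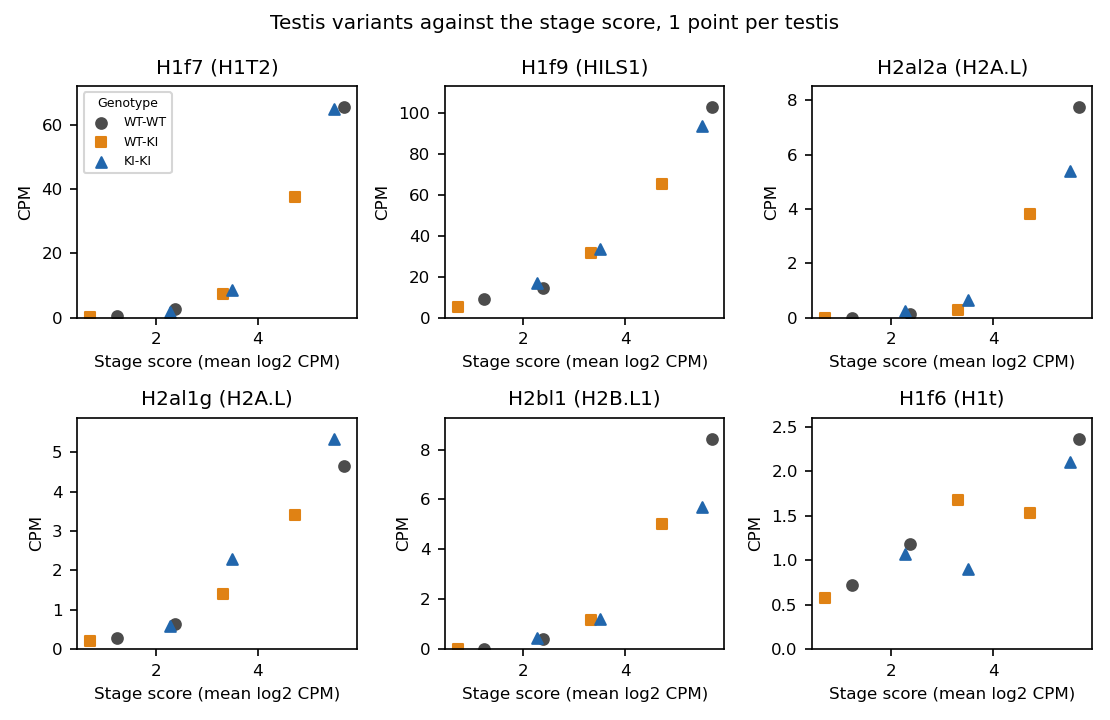
CPM against the stage score for 6 testis variants, 1 point per testis, with genotype by colour and marker. H1f7, H1f9, H2al2a, H2al1g and H2bl1 are highest in the 3 testes with the highest scores, and H1f6 rises less, from 0.578 to 2.37 CPM.

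The linker variants of spermatids rose most clearly. H1f9 (HILS1, a linker histone-like protein of elongating spermatids, chr11:94967593-94968456) was at 5.05, 8.88, 17.0, 14.4, 31.8, 33.7, 65.2, 93.6 and 103 CPM. Its slope was 0.83 (SE 0.03, adjusted p = 4.62e-10 by edgeR), and the highest library stood 20.3-fold above the lowest. H1f7 (H1T2, which lies in a cap at the apical pole of the spermatid nucleus, chr15:98255986-98257293) was at 0.263, 0.483, 1.61, 2.64, 7.31, 8.49, 37.7, 64.9 and 65.6 CPM. It spanned 249-fold between its lowest and highest library, the lowest resting on 5 counts, with a slope of 1.56 (SE 0.05, adjusted p = 1.85e-10 by edgeR). Levels of the pair spread widely within each genotype. The early testes already held a larger share of the HILS1 maximum than of the H1T2 maximum. In KI-KI 1, with a score of 2.27, H1f9 stood at 16.5% of its highest level and H1f7 at 2.46%. In KI-KI 2, with a score of 3.50, these shares were 32.8% and 13.0%.

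The linker variant of spermatocytes behaved differently. H1f6 (H1t, chr13:23695814-23696725) was at 0.578, 0.724, 1.07, 1.18, 1.68, 0.898, 1.53, 2.11 and 2.37 CPM, from 11 to 51 counts. Its slope of 0.35 (SE 0.08, adjusted p = 0.00677 by edgeR) was shallower than that of any other rising testis variant, and without WT-WT 1 it missed the threshold at a slope of 0.36. The mean log2 CPM of 12 pachytene spermatocyte genes was 9.05 to 9.46 in the same libraries. The 3 genes outside the histone families whose log2 CPM followed H1f6 most closely over the 9 libraries were Prss40, Tsga10ip and Smim6, each with Pearson's r = 0.98. All points share their library, depth and stage. H1f8 (H1oo, the linker histone of oocytes) had at most 2 counts.

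The testis core pair TH2A and TH2B was at the limit of detection. H2ac1 (TH2A) had 0 to 5 counts and H2bc1 (TH2B) 0 to 4.82, each with no more than 3 counts in 6 of the 9 libraries, and neither was tested. Both are annotated without a 3′ UTR or a polyadenylation signal, and the libraries were poly(A)-selected. Whether this lowered their counts was not tested. H2bl1 (an H2B.L1 variant, chr13:98984085-98984565) was at 0 in the 2 testes with the lowest scores. It then stood at 0.447, 0.392, 1.17, 1.22, 5.02, 5.69 and 8.44 CPM, with a slope of 1.4 (SE 0.11, adjusted p = 3.91e-07 by edgeR).

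The 18 H2A.L genes encode short H2A variants that dimerise with TH2B in condensing spermatids. Summed, they were at 0.421, 0.676, 2.06, 1.13, 3.74, 5.84, 16.9, 24.9 and 29.6 CPM, a 70.5-fold range. Of the 18, 9 were tested and rose, 3 were at 0 in every library, and the other 6 had at most 1.38 counts. H2al2a (chr2:17996417-17996958), the H2A.L.2 gene needed for transition protein loading, was at 0, 0, 0.224, 0.147, 0.279, 0.653, 3.81, 5.41 and 7.75 CPM. Its slope was 1.74 (SE 0.12, adjusted p = 1.02e-07 by edgeR), and in KI-KI 2 it stood at 8.43% of its highest level. H2al3 on chromosome X had a slope of 2.36 (SE 0.17, adjusted p = 1.56e-07 by edgeR, and 1.35 with limma on log2(FPKM + 0.1)), with at most 2 counts in the 6 testes with the lowest scores and 35, 47 and 84 counts in the others. The slopes of H2al2a and H2al3 stand above 1 and that of H2al1g (0.91, SE 0.08) just under it.

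H2al1a to H2al1j form a cluster on chromosome X, and H2al1k, H2al1m, H2al1n and H2al1o lie elsewhere on that chromosome. H2al1g was at 0.210, 0.290, 0.582, 0.636, 1.4, 2.29, 3.41, 5.35 and 4.64 CPM, and H2al1a at 0.105, 0.145, 0.492, 0.245, 1.28, 1.27, 2.87, 3.19 and 4.69. These are among the 7 genes with identical coding sequences, and their summed counts had a slope of 0.96 (SE 0.06, adjusted p = 7.31e-08 by edgeR). H2al1b, H2al1e, H2al1k, H2al1m and H2al1n rose with slopes of 0.98 to 1.66 and reached 1.08 to 3.06 CPM. H2al1b, H2al1e, H2al1k and H2al1m share 74.7%, 100%, 80.0% and 70.4% of their 100-base stretches with other histone transcripts. Their single levels are therefore uncertain too, whereas H2al1n shares 0%. The slope of H2al1n, 1.52, was 2.73 without KI-KI 3 and 2.33 without KI-KI 2, and that of H2al1k, 1.42, was 0.85 with limma on log2(FPKM + 0.1). H2al1c, H2al1d, H2al1f, H2al1h and H2al1i each peaked at 1.38 counts, and H2al1o at 1. H2al1j was at 0 throughout, as were H2al2b and H2al2c on chromosome Y.

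**Figure D3:**
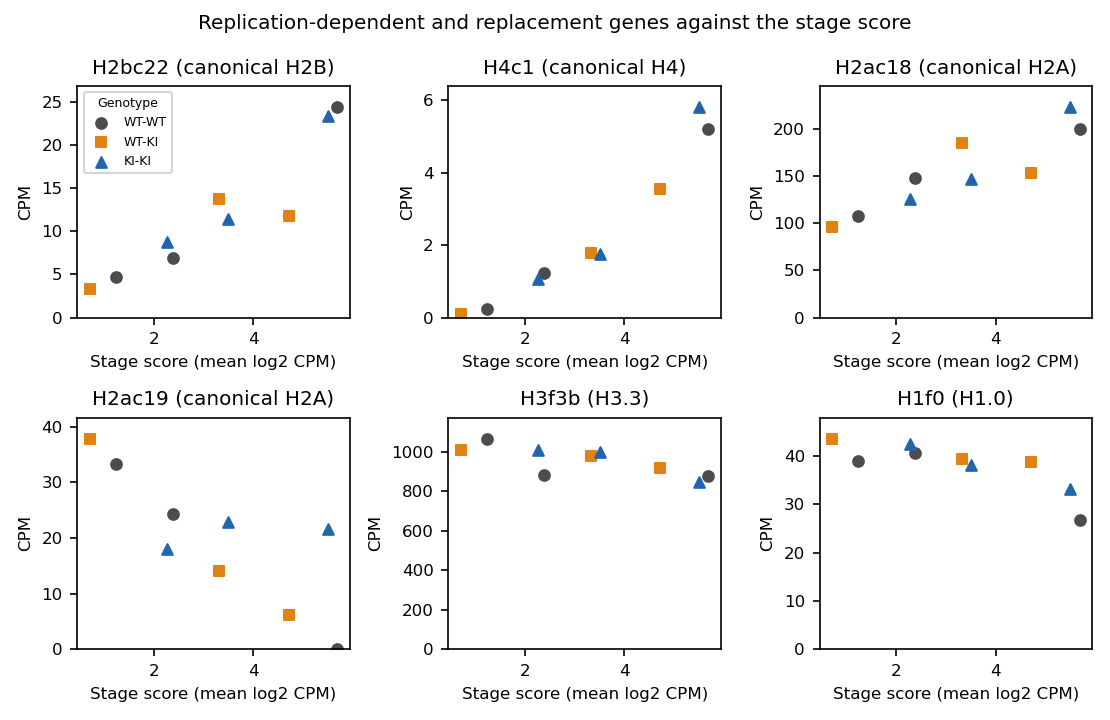
CPM against the stage score for 4 replication-dependent genes and 2 replacement variants, 1 point per testis, with genotype by colour and marker. H2bc22, H4c1 and H2ac18 rise, H2ac19 and H1f0 fall, and H3f3b stays between 847 and 1068 CPM.

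Among replication-dependent genes, 4 rose with the score, and they came from each core family. H2bc22 (an H2B gene, chr13:21787461-21789213) was at 3.36, 4.68, 8.81, 6.90, 13.8, 11.4, 11.8, 23.4 and 24.4 CPM, a 7.24-fold range with a slope of 0.50 (SE 0.05, adjusted p = 6.92e-06 by edgeR). H4c1 (an H4 gene, chr13:23760692-23761230) was at 0.105, 0.241, 1.07, 1.22, 1.79, 1.76, 3.54, 5.81 and 5.20 CPM. Its slope of 0.86 (SE 0.09, adjusted p = 7.77e-06 by edgeR) was close to that of HILS1. H3c1 (an H3 gene, chr13:23761853-23762386), which lies 622 bases upstream of H4c1 on the same strand, was at 0.315, 0.579, 0.268, 0.245, 0.558, 0.571, 0.987, 2.05 and 1.90 CPM. Its slope was 0.56 (SE 0.12, adjusted p = 0.00322 by edgeR), and without WT-WT 1 it was 0.57 and missed the threshold. H2bc22, H3c1 and H4c1 share 34.7%, 32.2% and 31.8% of their 100-base stretches with other histone transcripts.

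H2ac18 was at 95.6, 108, 126, 148, 185, 147, 153, 223 and 200 CPM, a 2.33-fold range with a slope of 0.21 (SE 0.03, adjusted p = 0.00034 by edgeR). Its copy H2ac19 was at 37.9, 33.3, 18, 24.3, 14.1, 22.9, 6.19, 21.7 and 0 CPM, with a slope of -0.61 (SE 0.17, adjusted p = 0.0216 by edgeR). Without WT-WT 1, where it was at 0, the slope of H2ac19 was -0.35 and no longer passed. Summed, the copies were at 134, 142, 144, 172, 199, 170, 159, 245 and 200 CPM and rose with a slope of 0.13 (SE 0.03, adjusted p = 0.00878 by edgeR). The single copies thus had slopes of opposite sign while their sum rose.

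The other tested replication-dependent genes passed in neither direction. After the 4 that rose, the positive slope with the smallest p was that of H3c15, 0.07 (SE 0.08). Summed with its copy H3c14 it was at 8.35 to 13.2 CPM, with a slope of -0.01 (SE 0.04). After H2ac19, the falling slopes with the smallest p were those of H2ac20 (-0.17, SE 0.09), H2bc21 (-0.04, SE 0.02), H3c14 (-0.06, SE 0.04) and H4c8 (-0.14, SE 0.13). H2bc4 was at 11.9 to 19.3 CPM with a slope of -0.01 (SE 0.04). Apart from H2ac18 and H2ac19, the 60 remaining replication-dependent genes summed to 86.4 to 119 CPM per library.

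Replacement variants varied little with the score. H3f3b was at 1008, 1068, 1012, 885, 978, 1002, 917, 847 and 876 CPM, with a slope of -0.05 (SE 0.02, adjusted p = 0.0576 by edgeR). H3f3a ranged from 337 to 408 CPM (slope 0.02, SE 0.02). H2az1 ranged from 313 to 410 CPM (slope -0.02, SE 0.02), and H2ax, whose phosphorylated protein marks DNA breaks and the sex body, from 77.3 to 143 CPM (slope -0.07, SE 0.04). H1f10 ranged from 43.0 to 60.0 CPM (slope 0.05, SE 0.03).

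The 2 that fell were H1f0 and H2az2. H1f0 (H1.0, a linker histone of differentiated and resting cells) was at 43.6, 38.9, 42.4, 40.6, 39.4, 38.1, 38.8, 33.2 and 26.8 CPM. Its slope was -0.10 (SE 0.02, adjusted p = 0.0134 by edgeR), and it missed the threshold without WT-WT 1 (-0.06) and without KI-KI 3 (-0.09). H2az2 was at 42.1, 42.0, 40.8, 36.5, 46.7, 35.6, 37.0, 34.3 and 29.1 CPM, with a slope of -0.08 (SE 0.03, adjusted p = 0.0478 by edgeR). Its call was kept in 2 of 9 fits that each left out a library. Among all genes tested, 8.41% fell and 17.5% rose with the score. Over the same testes, 2 of 10 Sertoli genes fell and 1 rose, 4 of 10 early meiotic genes fell and 1 rose, and 2 of 11 spermatogonial genes tested fell and 1 rose. Their mean log2 CPM ranged from 5.34 to 5.88, 6.19 to 6.56 and 3.19 to 3.74, and their part in these falls was not tested.

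**Figure D4:**
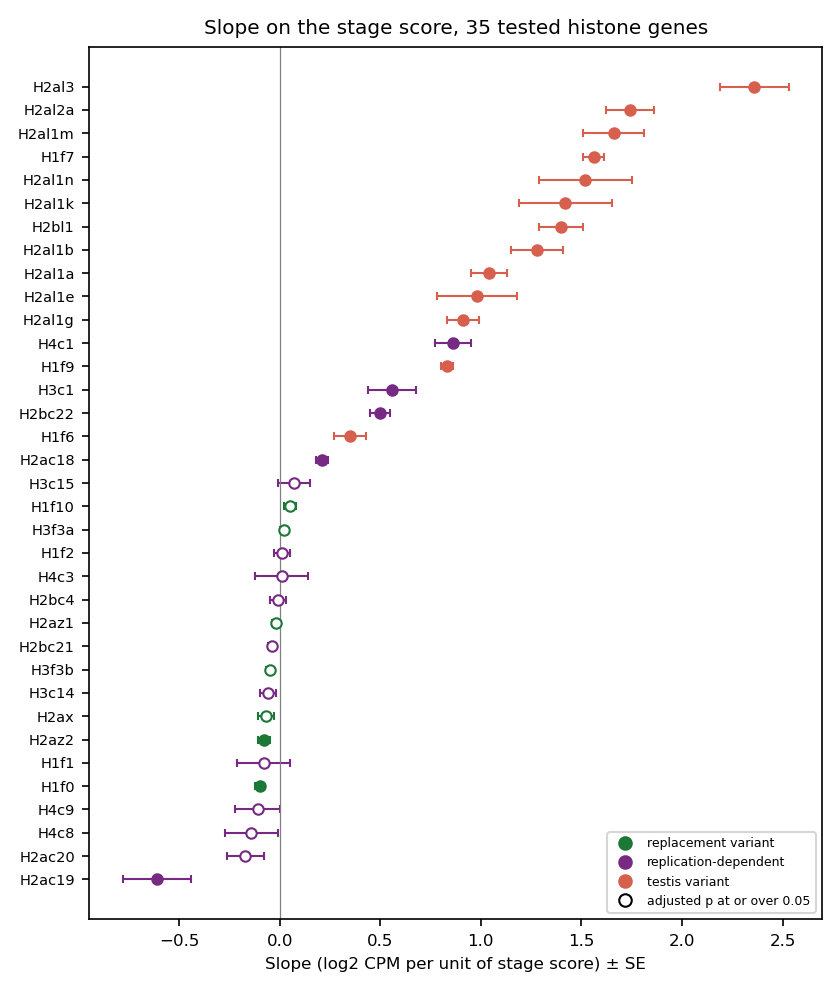
Slope on the stage score (log2 CPM per unit, ± SE) for the 35 histone genes tested, coloured by class, with open circles for an adjusted p of 0.05 or more. The 13 testis variants run from 0.35 (H1f6) to 2.36 (H2al3), and the replacement variants from -0.10 to 0.05.

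The genes that supply histones and those that replace them were examined beside the histones. Of 31 genes for histone mRNA processing, storage and deposition, 4 rose and 4 fell. Over all genes tested, 17.5% rose and 8.41% fell. Nasp, a chaperone of soluble H3 and H4 that is abundant in germ cells, rose with a slope of 0.07 (SE 0.02, adjusted p = 0.00625 by edgeR), and Ipo4, an importin of H3 and H4, with 0.09 (SE 0.02, adjusted p = 0.0076 by edgeR). Nap1l1, an H2A and H2B chaperone, fell with a slope of -0.08 (SE 0.02, adjusted p = 0.00807 by edgeR), and Casp8ap2, a factor of the histone locus body, with -0.09 (SE 0.02, adjusted p = 0.0162 by edgeR). Slbp, which binds the stem-loop, was at 161 to 194 CPM with a slope of -0.04 (SE 0.02, adjusted p = 0.0949 by edgeR). Npat, which activates replication-dependent genes, was at 66.6 to 81.3 CPM with a slope of -0.02 (SE 0.02, adjusted p = 0.434 by edgeR). Of 24 S phase genes, 0 rose and 2 fell, namely the replication helicase subunit Mcm6 (-0.08, SE 0.02) and the cyclin Ccne2 (-0.08, SE 0.03). The median slope was -0.03 for the supply genes and -0.06 for the S phase genes, against -0.01 over all genes.

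Of 19 genes of the histone-to-protamine exchange that were measured, 10 rose and 2 fell, but 6 of the 19 belong to the stage score itself. Of the 13 that do not, 4 rose and 2 fell, with a median slope of 0.01, while 17.5% of all genes tested rose and 8.41% fell. Chd5, a chromatin remodeller of spermatids, was at 19.1 to 232 CPM with a slope of 0.71 (SE 0.02, adjusted p = 1.85e-10 by edgeR). Cenpa, the centromeric H3, fell with a slope of -0.12 (SE 0.03, adjusted p = 0.0113 by edgeR), and the deacetylase Sirt1 with -0.06 (SE 0.02, adjusted p = 0.0396 by edgeR). The transition proteins and protamines were used in the score, so their slopes are no test. Tnp1 reached 28.2 CPM, Tnp2 112, Prm1 41.7 and Prm2 59.4.

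The genotypes were then compared a pair at a time. Between KI-KI and WT-WT testes, 28 of 15543 genes (0.18%) passed an unadjusted p under 0.05 with a change of more than 2-fold, and 0 of 31 histone genes tested did. Between KI-KI and WT-KI, 69 of 15463 genes (0.446%) and 0 of 29 histone genes passed. Between WT-KI and WT-WT, 36 of 15413 genes (0.234%) and 0 of 28 histone genes passed. With edgeR, no gene of any kind passed an adjusted p under 0.05, while 196 (1.26%), 343 (2.22%) and 171 (1.11%) genes had an unadjusted p under 0.05, none of them a histone gene. DESeq2 called 2, 6 and 0 genes after adjustment. With 3 libraries a group and these spreads, a p that misses the threshold does not show that a gene was alike in both genotypes.

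**Figure D5:**
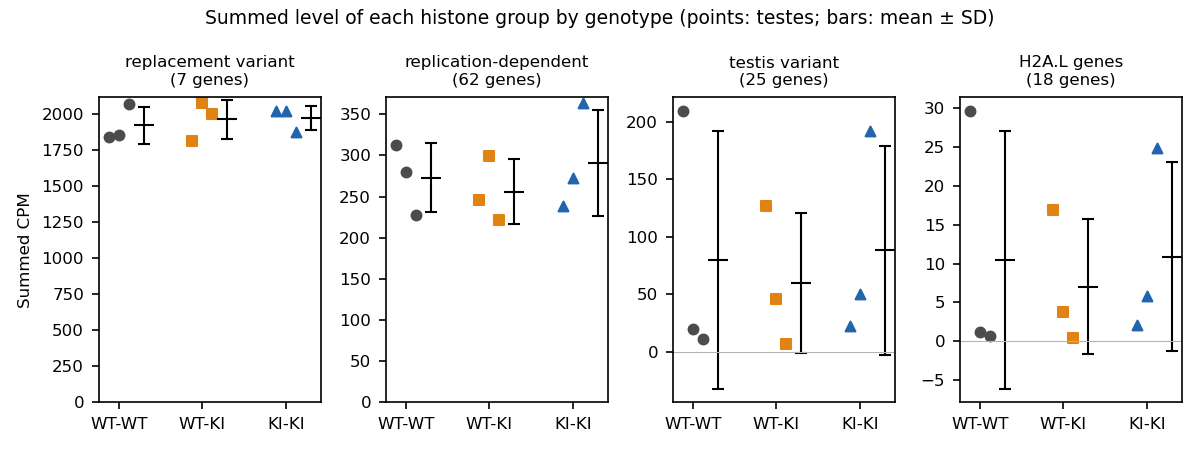
Summed CPM of the replacement variants, the replication-dependent genes, the testis variants and the H2A.L genes by genotype, with 1 point per testis and the mean ± SD over 3 testes at the right. The genotypes overlap in all 4 panels, and the testis variants range from 6.52 to 209 CPM.

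Summed levels overlapped between the genotypes in every class. Testis variants summed to 79.9 ± 112 CPM in WT-WT, 59.7 ± 61.2 in WT-KI and 88.2 ± 90.7 in KI-KI (SD, n = 3 each). The 3 WT-WT testes alone spread from 10.8 to 209 CPM, in the order of their stage scores. Replication-dependent genes summed to 273 ± 42.4, 256 ± 39.6 and 291 ± 64.6 CPM, and replacement variants to 1924 ± 131, 1967 ± 136 and 1976 ± 84.1 CPM (SD, n = 3 each). Spermatid variants thus differed more between testes of a genotype than between genotype means.

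Single histone genes are given for the smallest p in each comparison. H2bc21, an H2B gene, was at 42.5, 47.3 and 42.8 CPM in WT-WT and at 39.4, 41.5 and 38.7 in KI-KI. These groups did not overlap, as for 5.58% of all genes tested, and the log2 fold change was -0.15 (SE 0.09, exact permutation p = 0.1). H2bc4 was 15.3 ± 3.29 and 18.2 ± 1.18 CPM, with a log2 fold change of 0.25 (SE 0.17), which was 0.45 and passed an unadjusted p under 0.05 without WT-WT 2, and 0.14 without WT-WT 3. H4c8 differed by 0.73 (SE 0.52), and by 0.40 without WT-WT 1, 0.42 without KI-KI 3 and 1.14 without WT-WT 3. H3c14 differed by -0.09 (SE 0.18) and, without WT-WT 2, by 0.08. These groups overlapped.

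Between KI-KI and WT-KI, H2ac20 and H1f2 were the histone genes tested whose groups did not overlap, as for 7.06% of all genes tested. H2ac20, an H2A gene, was at 0.404, 0.447 and 0.894 CPM in WT-KI and at 0.984, 1.14 and 0.911 in KI-KI, with a log2 fold change of 0.81 (SE 0.39, adjusted p = 0.948 by edgeR, exact permutation p = 0.1). H1f2 (H1.2) was at 6.63 ± 0.715 and 8.12 ± 0.300 CPM, with a log2 fold change of 0.29 (SE 0.14, adjusted p = 0.948 by edgeR, exact permutation p = 0.1). H2az2 (-0.18, SE 0.12) and H1f0 (-0.10, SE 0.12) were the lower genes with the smallest p, and their groups overlapped. Without WT-KI 3, H2ac20 and H2ac19 passed the unadjusted p and 2-fold, H2ac20 with a log2 fold change of 1.25. H2ac20 also passed the unadjusted p, short of 2-fold, with the stage score in the model (0.98). With limma it did so at pseudocounts of 0.1 (0.80) and 1 (0.48). Without WT-KI 2, H1f2 passed the unadjusted p with 0.38.

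Between WT-KI and WT-WT, 0 of the 28 histone genes tested had groups that did not overlap, against 5.36% of all genes tested. H2ac20 differed by -0.84 (SE 0.44, exact permutation p = 0.2) and, without WT-KI 3, passed the unadjusted threshold and 2-fold with -1.29. With the stage score in the model, H2ac20 was at -0.89 and passed the unadjusted threshold alone. H2bc21 differed by -0.18 (SE 0.12) and H2az2 by 0.22 (SE 0.16). H3c15 differed by 0.34 (SE 0.30), by 0.09 summed with its copy H3c14, by 0.15 without WT-WT 1 and by 0.67 without WT-WT 2. The comparisons share their groups and are not independent. An exact two-sided permutation test of 3 against 3 cannot go below p = 0.1.

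WT-WT 1 had the highest stage score. Without it, H1f9, H2al2a, H2al1a, H2al1g and the replication-dependent H2bc22 passed an unadjusted p under 0.05 and 2-fold between KI-KI and WT-WT, as did 506 genes in all. With all libraries kept, 28 genes passed there, none of them a histone gene. With or without the stage score in the model, 0 histone genes then passed in any of the 3 comparisons. Whether stage accounts for the genes that passed without WT-WT 1 was not tested.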

How the data were processed

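From whole testes, 9 mRNA libraries were sequenced on an Illumina platform. The authors filtered reads with fastp (0.18.0), assembled mapped reads with StringTie (1.3.1) and computed FPKM. The submitters' processing notes name the mm39 genome, and the aligner and counting tool are not given in the sources used here. The deposited table holds estimated counts, 89.2% of them whole, and FPKM values that the authors rounded. No column was left unused.

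Estimated counts were rounded and tested in R (4.3.3) with edgeR (4.0.16): filterByExpr, TMM, quasi-likelihood tests, two-sided, Benjamini-Hochberg adjustment over all genes. Genotypes were compared in pairs, and slopes used all libraries. The log2 CPM behind the stage score used a prior count of 1, and the slopes were fitted to counts with the default settings of edgeR. Alternatives were DESeq2 (1.42.0), its size factors, limma (3.58.1) on log2(FPKM + 0.1) and log2(FPKM + 1), other filters, covariates and single libraries left out. The fits were first tested on simulated data. CPM are TMM-scaled. SE and p-values include the spread between libraries, and the limit of detection of 3 counts covers counting error only. Gene positions and sequences are of GRCm38, matched by identifier for 94 genes, since the table gives none.

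The histone genes and all lists were chosen with earlier results of these data known. Genes named are all testis and replacement variants, the 5 highest, rising and falling replication-dependent genes, the 2 higher and 2 lower per comparison, and, in the other lists, the 2 rising and 2 falling with the smallest p, besides Slbp, Npat, transition proteins and protamines. Genes named with the sequences, ends, copies and pairs were chosen after their values were seen. Replicate numbers did not pair the libraries.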

Additional observations from a re-analysis of the deposited data

How the results depend on the processing

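Of 62 replication-dependent genes, 47 were too low to be tested for stage, and each genotype had 3 libraries. Of 531 values of single genes under the alternatives, 500 kept their direction and side of the threshold, 21 lost it, 8 gained it and 2 changed sign, namely H3c14 between KI-KI and WT-WT (-0.09, and -0.20 to 0.08 with a library left out, positive without WT-WT replicate 2) and H2ac19 with stage (0.13 with identical copies summed, an alternative chosen after seeing the data). Histone genes rising with stage numbered 17 under most alternatives, 15 to 17 with a library left out, 16 with copies summed, and 4 where every library had to hold at least 10 counts, a filter that removes genes silent in early testes. Histone genes falling numbered 3, against 1 with DESeq2, 1 with at least 10 counts in every library, 5 with limma on log2(FPKM + 0.1) and 0 to 4 with a library left out. Genes past the unadjusted p and 2-fold between KI-KI and WT-WT numbered 28, against 16 with DESeq2, 100 with no filter, 9 with at least 10 counts, 16 and 1 with limma at pseudocounts of 0.1 and 1, 59 with the stage score and 23 to 506 with a library left out. The highest of these was without WT-WT 1. With no filter, 1 histone gene passed there (H3c2), and with a library left out 0 to 5. Between KI-KI and WT-KI the counts were 69, against 159 with no filter, 24 with at least 10 counts, 37 and 6 with limma and 59 to 145 with a library left out (145 without WT-KI replicate 2, 110 without KI-KI replicate 1). Histone genes numbered 1 with no filter (H2ac11) and 0 to 2 with a library left out. Between WT-KI and WT-WT they were 36, against 20 with DESeq2, 121 with no filter, 17 with at least 10 counts, 16 and 1 with limma, 73 with the stage score and 40 to 67 with a library left out. Histone genes numbered 3 with no filter (H2ac1, H3c3 and H4c18) and 0 to 1 with a library left out. The causes were not tested. Correlations between libraries of the same replicate number ranged from -0.73 to 0.78, so the numbers do not pair them. With the replicate number as a block, the counts of genes were 18, 56 and 38, histone genes 0 in each comparison, and 17 rose and 2 fell with stage.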

Other observations

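Histone genes outside the symbol pattern were also in the table and were looked at after the other values had been seen. H2ap, an H2A gene related to the short H2A variants, rose with the stage score much as the H2A.L genes did. It had 1, 2, 8, 3, 14, 15, 55, 92 and 131 counts in the order of the scores, and its slope was 1.36 (SE 0.09, adjusted p = 7.75e-08 by edgeR). H2ab1 and H2ab2, which encode the spermatid variant H2A.B, were at 0 in every library, and H2ab3 had 0 to 6 counts, highest in WT-WT 1. H2aw, with 216 to 498 counts, fell with the score, with a slope of -0.17 (SE 0.04, adjusted p = 0.00931 by edgeR). Macroh2a1 stayed between 108 and 119 CPM (slope -0.01, SE 0.02), and H2aj between 8.44 and 14.9 CPM (slope -0.03, SE 0.04).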
